A study of Arabidopsis thaliana with 4 samples.

Results

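Ribosome biogenesis and nucleolar genes of Arabidopsis thaliana were followed in seedling shoots after a dip in abscisic acid (ABA), the hormone of drought responses and seed maturation. The set was chosen by locus as 51 genes for ribosome assembly, pre-rRNA processing and the nucleolus. It was chosen with earlier results of these data known, so its counts against all probe sets are not independent evidence. Of the 51 genes, 32 had a probe set named in the array's annotation, out of 11365 genes named in all. The ABA group holds 2 arrays of wild-type Col-0 shoots taken 4 h after immersion for 5 min in 100 uM ABA, and the mock group holds 2 arrays of Col-0 shoots dipped in the same solution without ABA (basal salts with 0.1% Tween 20, a wetting agent). All seedlings were 14 days old, grew in 24 h light, and were pooled by 20 to 24 shoots per array, so every value is an average over whole shoots of many plants.

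Ribosomes are built in the nucleolus, where a long precursor RNA is transcribed, chemically modified, cut and wrapped in ribosomal proteins. Small nucleolar ribonucleoproteins (snoRNPs) guide the modifications: box C/D particles methylate riboses and box H/ACA particles convert uridine to pseudouridine. The small-subunit processome, assembled around the U3 snoRNA, releases the precursor of the small subunit, while a separate series of factors folds and exports the large subunit. In plants these genes are known to be most active in growing, dividing tissue.

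Of the 32 genes measured, 4 carry a symbol in the annotation (DIM1A, RBL, PCN and YAO) and 28 are named by locus code only. The protein named beside a code is background knowledge, mostly through the yeast counterpart, and not part of the array's annotation. They comprise 5 of 9 snoRNP core genes, 17 of 26 small-subunit genes and 10 of 15 large-subunit genes. The other 19 were not analysed here: FIB1, FIB2, NOP56 and NAP57 of the snoRNPs, the nucleolin gene NUC-L1, the small-subunit genes MEE21, AT1G26530, EMB2762, AT5G11240, AT3G10530, TOZ, PWP2, AT4G28450 and SWA1, and the large-subunit genes AT1G79150, EDA25, PPAN, PUM24 and AT5G20600. Each gene measured had a single probe set, and the probe sets of AT4G02400 and AT1G69070 carry a name type marking possible binding to related transcripts.

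Replicate arrays correlated at r = 0.991 in each group and arrays of different treatments at r = 0.944 to 0.952, across probe sets, which are not independent replicates. As markers of the treatment, 9 of 9 ABA-induced genes named here rose, by 1.51 to 5.38 on the log2 scale. Of 16 shoot markers 7 were named, of which 6 fell (2 after quantile normalization). All 7 lay in the brightest of 5 equal brightness classes of probe sets, where 36.3% of all fell. Their summed intensities were 6928 and 6735 after ABA and 9362 and 10130 in mock shoots. Of 14 root markers 7 were named, and PYK10 and BGLU21 alone exceeded the noise level (8.76 at most, the size of the 1st percentile of each array) on both mock arrays. PYK10, which encodes a root beta-glucosidase, read 104 and 119.9 after ABA and 320.5 and 279.7 in mock shoots. Whether root tissue on the shoots took any part in the results below was not tested.

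Genes for ribosome biogenesis were lower after ABA at every step that could be measured. After ABA 23 of 32 fell, 0 rose, and 9 did not pass (limma, Benjamini-Hochberg adjusted p under 0.05 over all 19371 probe sets, background 19.6% lower and 3.97% higher). At an unadjusted p under 0.05, 30 were lower and 0 higher, while 7839 of all 19371 probe sets passed in either direction. A fall of at least 2-fold on the log2(intensity + 16) scale was called in 8 of 32 (background 2.01%), and 31 of 32 had a change below 0 (background 66.9%). Their median log2 change was -0.82, against -0.13 for all probe sets, and 31 of 32 lay below that overall median. In plain intensity, the 30 genes above the noise level in both groups had a median of 44.0% of the mock level after ABA, with a range of 23.5% to 75.0%. Both ABA arrays lay below both mock arrays in 31 of 32 genes (background 50.8%), and the remaining gene, AT4G16630, read below 0 on every array. These background shares were higher among bright probe sets, as given below. In these bulk shoots, fewer cells of a type that expresses the genes and less RNA per cell cannot be told apart.

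**Figure D1:**
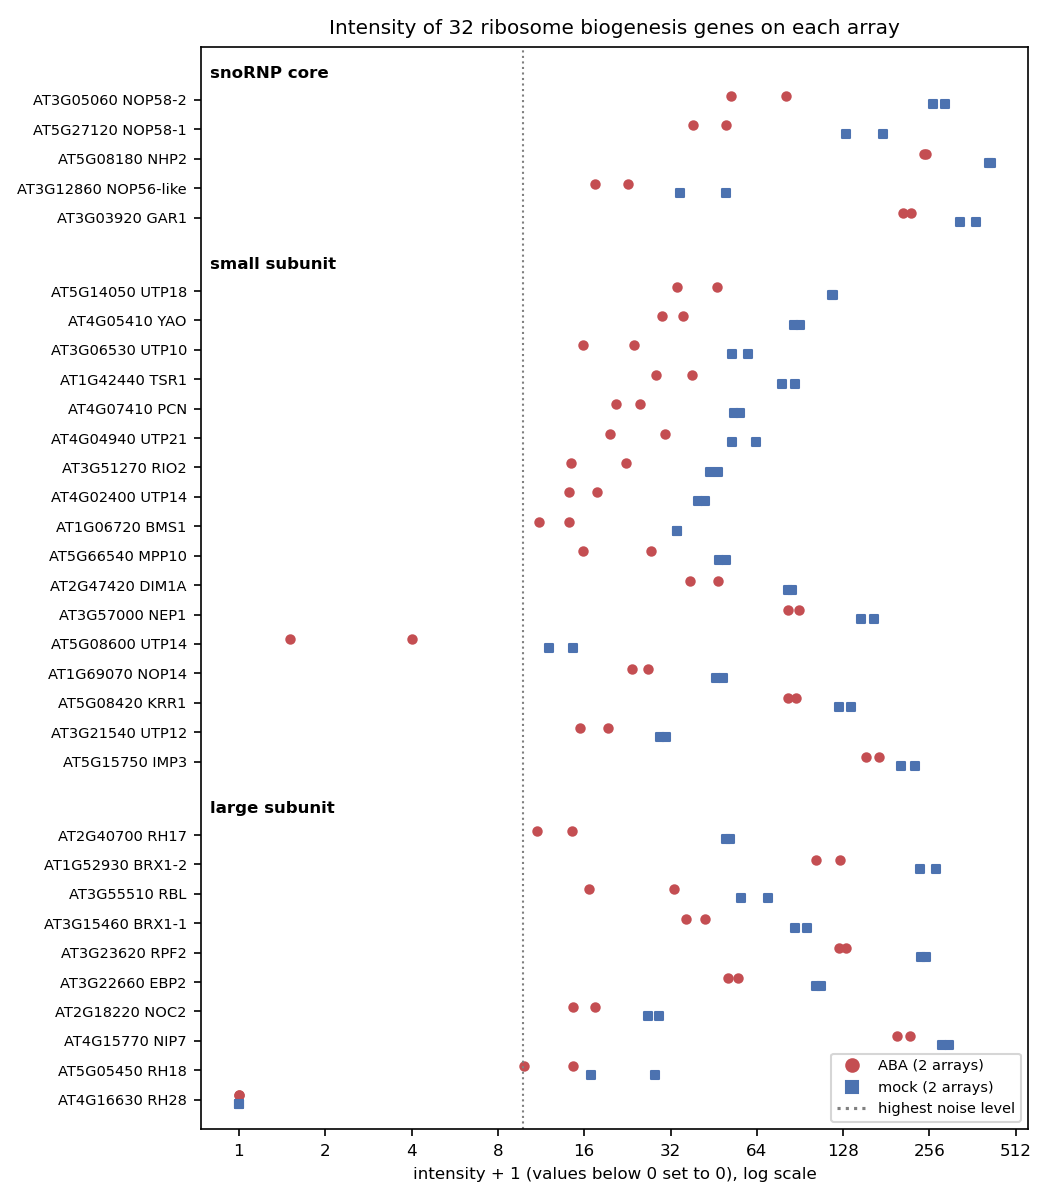
Intensity of each of the 32 genes on each array, with 1 added and values below 0 set to 0, on a log axis. Red circles are the 2 ABA arrays, blue squares the 2 mock arrays, and the dotted line is the highest noise level of the 4 arrays (8.76). Circles lie left of squares for 31 genes, and AT4G16630 sits at the floor in all 4.

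The array-wide scale bears on these counts. The sources used here do not give the scaling between arrays. As deposited, the median of all probe sets was -0.13. It was -0.0048 after quantile normalization (which forces all arrays to 1 distribution) and 0.070 after centring each array on its median. Scaled to 9 spike control sets (BioB, BioC, BioDn and CreX), it was -0.34. Whether those sets follow the amount of RNA was not tested. Calls over all probe sets numbered 3805 lower and 769 higher as deposited, 1011 and 892 after quantile normalization, 2424 and 1878 after median centring, and 8085 and 525 under spike scaling. The median of the 32 genes was -0.82, -0.58, -0.62 and -1.17 under the same scalings, so it lay below the overall median in each. After quantile normalization 7 of 32 fell (background 5.22% lower) and 0 rose (background 4.60% higher), while 31 kept a change below 0 (background 50.9%). With any 1 of the 4 arrays left out, limma called 0 of all 19371 probe sets, and the smallest adjusted p of any was 0.0863 to 0.110. Such fits have a lone array in an arm, assumed to vary like the other group, so the lost calls say nothing particular about these genes. The median change was -0.72 without ABA replicate 1, -0.90 without ABA replicate 2, -0.84 without mock replicate 1 and -0.80 without mock replicate 2.

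Brightness was compared because the shift of all probe sets differed between 5 equal brightness classes. From dimmest to brightest, the medians were 0, -0.051, -0.24, -0.36 and -0.33. The constant added before log2 shrinks changes in the dim classes. The set is bright, with 16 genes in the second brightest class and 10 in the brightest. In the brightest class 9 of 10 fell, against 36.3% of all probe sets there. In the second brightest 11 of 16 fell, against 36.2% of all probe sets. The median change was -0.74 for the genes in the brightest class, against -0.33 for all its probe sets, and -0.88 for those in the second brightest, against -0.36. In the brightest class 10 of 10 genes had a change below 0 and both ABA arrays below both mock arrays. Of all 3875 probe sets there, 3024 had a change below 0 and 2695 had the arrays apart in that way. In the second brightest class both held for 16 of 16 genes, against 3150 and 2762 of 3874 probe sets. Falls of at least 2-fold were called in 3 of 10 and 5 of 16 genes, against 191 and 168 probe sets of these classes. After quantile normalization 2 of 10 fell in the brightest class (11.0% of all) and 4 of 16 in the second brightest (8.70% of all).

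**Figure D2:**
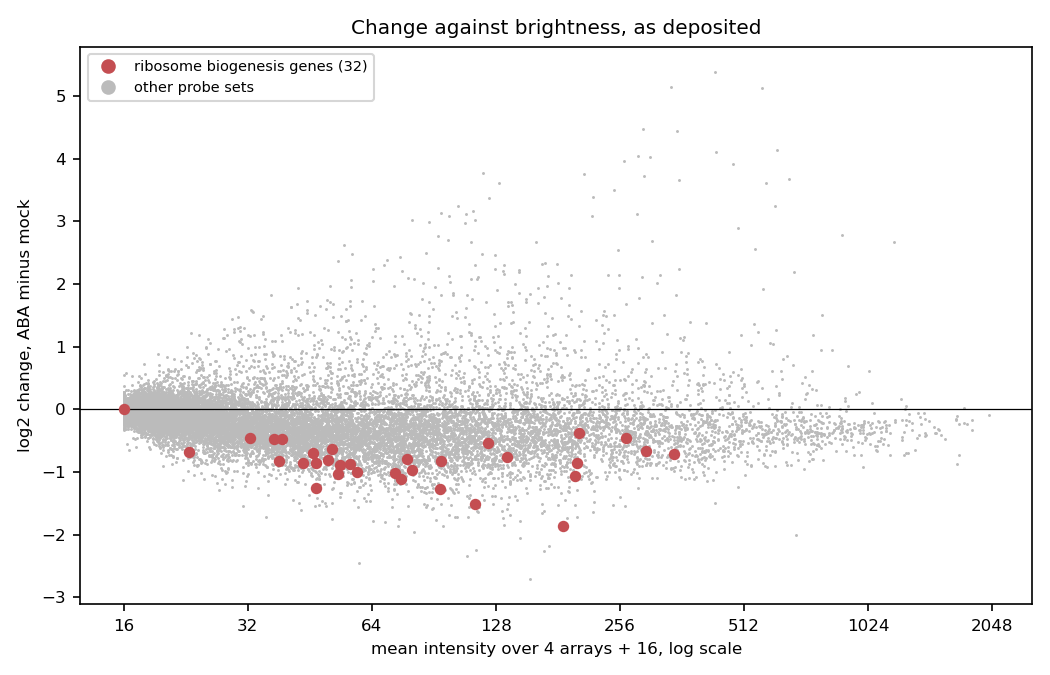
Log2 change (ABA minus mock, of intensity + 16) of every tested probe set against its mean intensity + 16, on a log axis. Red points are the 32 ribosome biogenesis genes and grey points all other probe sets. AT3G05060 is the lowest red point at -1.87, while others such as AT5G15750 at -0.38 lie well inside the grey cloud.

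**Figure D3:**
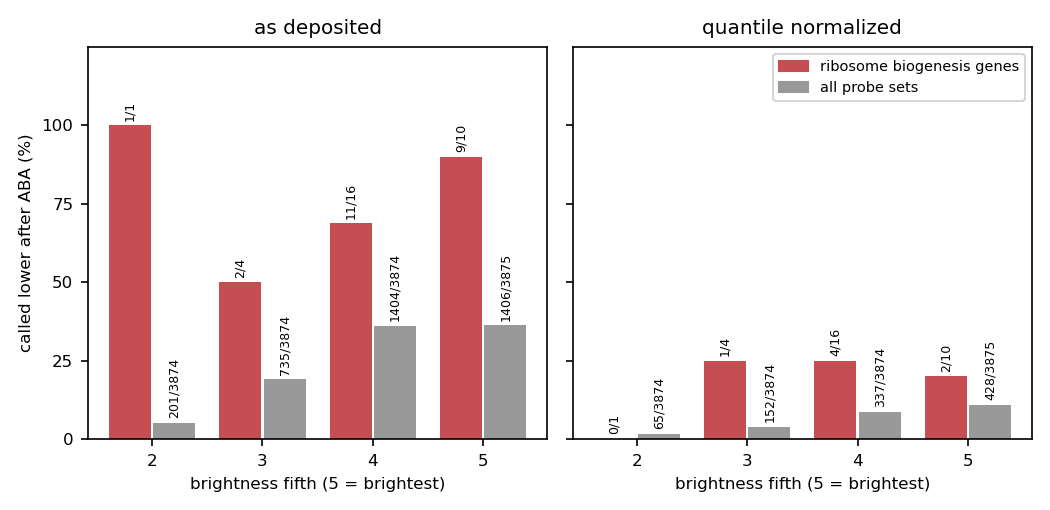
Share of genes called lower after ABA (percent) in each brightness class (5 equal classes), for the ribosome biogenesis genes (red) and all probe sets (grey), as deposited and after quantile normalization, with counts above the bars. The dimmest class, which holds 1 gene that was not called, is not drawn. In the brightest class 9 of 10 genes were called as deposited, and 2 of 10 after quantile normalization.

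The ABA replicates did not agree fully on these genes. In 27 of 32 the second ABA array read higher than the first, against 52.3% of all probe sets, and the median difference was 0.16 on the log2 scale. In the mock group 21 of 32 were higher on the second array, against 54.4% of all probe sets, with a median difference of 0.063. The summed intensity of the 32 genes was 1706 and 1951 after ABA and 3541 and 3768 in mock shoots. The 4 pairings of an ABA with a mock array reuse the same 4 arrays. In each pairing 31 of 32 genes were lower on the ABA array. That follows from the 31 genes with both ABA arrays below both mock arrays (50.8% of all probe sets), so it adds nothing. The median change ran from -0.92 to -0.72, against -0.15 to -0.12 for all probe sets. The median difference of 0.16 between the ABA replicates was smaller than this gap between treatments.

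The box C/D snoRNP genes held the 2 largest falls of the set. AT3G05060, which encodes a NOP58 protein of the box C/D core, read 50.9 and 79.7 after ABA and 263 and 288 in mock shoots. Both ABA readings were far under both mock readings, at 23.7% of the mock mean (log2 change -1.87, SE 0.23, limma adjusted p = 0.0337). Only 10 of all 19371 probe sets had a lower change. AT5G27120, the second NOP58 gene, read 37.4 and 48.9 after ABA and 130.4 and 176 in mock shoots, a log2 change of -1.51 (SE 0.21, limma adjusted p = 0.0383). Neither group overlapped the other in either gene. Both ABA arrays lay below both mock arrays in 50.8% of all probe sets, and in 2695 of 3875 in the brightest class. After quantile normalization the changes of the 2 NOP58 genes were -1.59 and -1.23, and neither passed (limma adjusted p = 0.0568 and 0.0713).

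The remaining box C/D gene, AT3G12860, encodes a protein of the NOP56 type, the partner of NOP58 on the guide RNA. It read 21.7 and 16.4 after ABA and 33.4 and 48.9 in mock shoots. The groups did not overlap (50.8% of all probe sets were apart in this direction). The mock replicates stood far apart, and the change of -0.70 (SE 0.19) did not pass (limma adjusted p = 0.110).

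Both box H/ACA genes fell. AT5G08180, for NHP2, an RNA-binding core protein, read 243 and 249 after ABA and 417 and 411 in mock shoots (log2 change -0.72, SE 0.024, limma adjusted p = 0.0166). The replicates were nearly equal, and AT5G08180 also fell after quantile normalization (-0.48, limma adjusted p = 0.0315). AT3G03920, for GAR1, which helps release the modified RNA, read 206 and 219 after ABA and 326 and 372 in mock shoots, a change of -0.67 (SE 0.088, limma adjusted p = 0.0366). After quantile normalization AT3G03920 did not pass (-0.44, limma adjusted p = 0.0939). The H/ACA genes kept 59.4% and 60.9% of the mock level, against 23.7% and 28.2% for the NOP58 genes and 46.3% for AT3G12860, and the difference between the classes was not tested.

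Small-subunit genes were lower throughout, with 12 of 17 called (19.6% of all probe sets), 0 higher (3.97%) and a median of -0.82. In the brightest and second brightest classes, 36.3% and 36.2% of all probe sets were called lower. Quantile normalization left 3 of 17 genes lower (5.22% of all probe sets, and 11.0% and 8.70% in those classes). The processome is built from modules, of which UTPA binds the precursor first and UTPB follows. AT5G14050, the UTPB gene UTP18, which recruits RNA-degrading machinery in yeast, read 32.8 and 45.6 after ABA and 117 and 116 in mock shoots (log2 change -1.27, SE 0.14, limma adjusted p = 0.0314). Both mock arrays gave nearly the same reading, and both ABA arrays stayed at or under 45.6.

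The UTPA genes measured both fell. AT3G06530, the counterpart of yeast UTP10, read 14.9 and 22.8 after ABA and 51.6 and 58.5 in mock shoots, a change of -1.04 (SE 0.15). PCN (POPCORN, AT4G07410), a WD-repeat protein needed for embryo patterning, read 19.6 and 24.0 after ABA and 54.7 and 52.4 in mock shoots. Its change was -0.88 (SE 0.076, limma adjusted p = 0.0236), and -0.59 after quantile normalization, which also passed (limma adjusted p = 0.0492). For AT3G06530 the limma adjusted p was 0.0426 as deposited and 0.0941 after quantile normalization.

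The other UTPB genes were lower without passing. AT4G04940, for UTP21, read 18.7 and 29.7 after ABA and 51.5 and 62.5 in mock shoots (-0.87, SE 0.19, limma adjusted p = 0.0772). AT3G21540, for UTP12, read 14.4 and 18.4 after ABA and 28.3 and 29.7 in mock shoots (-0.48, limma adjusted p = 0.0506). The groups were apart in both genes (50.8% of all probe sets in this direction), and the larger change came with the wider spread between ABA arrays.

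Among proteins that bind U3 or join the processome later, 7 of 9 genes fell (19.6% of all probe sets). YAO (AT4G05410), a U3-binding WD-repeat protein needed for embryo and gametophyte development, read 28.9 and 34.4 after ABA and 89.2 and 84.9 in mock shoots. This was 36.3% of the mock level (log2 change -1.12, SE 0.079, limma adjusted p = 0.0204), and its fall passed after quantile normalization as well (-0.82, limma adjusted p = 0.0371). AT1G06720, for BMS1, a GTPase of the processome, fell by 0.82, with readings of 10.1 and 13.2 after ABA and 32.6 and 32.8 in mock shoots, and it passed under quantile normalization (-0.58, limma adjusted p = 0.0495). AT3G57000, for NEP1, an rRNA methyltransferase, fell by 0.76, and AT1G69070, for the assembly factor NOP14, fell by 0.64. Neither passed after quantile normalization (limma adjusted p = 0.0644 and 0.0664). The smallest called change of the group was that of AT5G08420, for the RNA-binding protein KRR1, at -0.54, and after quantile normalization KRR1 had a change of -0.27 that did not pass.

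MPP10 and IMP3 form a complex that in yeast docks on U3, and neither passed. AT5G66540, for MPP10, read 14.8 and 26.3 after ABA and 46.1 and 49.0 in mock shoots (-0.82, SE 0.20, limma adjusted p = 0.0882). AT5G15750, for IMP3, read 153 and 169.6 after ABA and 204 and 227 in mock shoots, the smallest change of the small-subunit genes (-0.38, SE 0.086, limma adjusted p = 0.0791). Its change is close to the median of all probe sets of its brightness (-0.33), and after quantile normalization it was -0.16. IMP4, their partner in yeast, which was not among the 51 genes, fell by 0.75, with readings of 75.9 and 83.3 after ABA and 137 and 151 in mock shoots. IMP4 did not pass after quantile normalization (-0.47, limma adjusted p = 0.0646).

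Genes for later steps of the small subunit gave 2 falls of 3 (19.6% of all probe sets fell). AT1G42440, for the GTPase-like late assembly factor TSR1, read 27.6 and 37.1 after ABA and 77.7 and 85.9 in mock shoots (-1.02, SE 0.13, limma adjusted p = 0.0364). DIM1A, the dimethyltransferase that marks small-subunit rRNA, fell by 0.79, to readings of 36.4 and 46.0 after ABA, against 83.6 and 81.2 in mock shoots. AT3G51270, for the kinase RIO2, read 13.4 and 21.4 after ABA and 45.9 and 42.9 in mock shoots, and just missed the threshold (-0.86, SE 0.15, limma adjusted p = 0.0534). After quantile normalization 0 of these 3 genes passed, with limma adjusted p-values of 0.0817 for AT1G42440, 0.0928 for DIM1A and 0.126 for AT3G51270, while AT3G51270 passed after median centring (-0.66, limma adjusted p = 0.0313).

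Large-subunit genes gave 7 of 10 lower (19.6% of all probe sets), 0 higher (3.97%) and a median of -0.84. Their changes ran from -1.25 to 0. In the brightest and second brightest classes, 36.3% and 36.2% of all probe sets were called lower. Quantile normalization left 3 of 10 genes lower (5.22% of all probe sets, and 11.0% and 8.70% in those classes). AT2G40700, a DEAD-box helicase gene (RH17), read 13.6 and 9.94 after ABA and 50.7 and 49.1 in mock shoots. At 23.5% of the mock level it had the largest change of this step (-1.25, SE 0.084, limma adjusted p = 0.0201), and it passed after quantile normalization (-1.01, limma adjusted p = 0.0448). AT3G23620, for RPF2, a Brix-domain protein that brings the 5S RNA into the large subunit, read 123 and 130.4 after ABA and 249 and 239 in mock shoots (-0.86, SE 0.043, limma adjusted p = 0.0174). AT3G22660, for EBP2, read 49.7 and 54.0 after ABA and 102 and 106 in mock shoots (-0.83, SE 0.048, limma adjusted p = 0.0186). RPF2 and EBP2 had close replicates in both groups and passed after quantile normalization too, at -0.63 and -0.53.

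The BRX1 genes, for another Brix-domain factor, both fell. AT1G52930 read 102 and 124 after ABA and 237 and 268 in mock shoots, and AT3G15460 read 35.3 and 41.3 after ABA and 85.9 and 94.8 in mock shoots. Their changes were -1.06 (SE 0.13) and -0.97 (SE 0.088), with limma adjusted p-values of 0.0338 and 0.0246. After quantile normalization the changes were -0.82 and -0.68 and did not pass (limma adjusted p = 0.0631 and 0.0533).

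Of 2 genes of the NOC2 family, 1 was called lower (19.6% of all probe sets were). AT2G18220, for NOC2, which escorts early large-subunit particles, read 13.6 and 16.4 after ABA and 28.3 and 25.7 in mock shoots, and fell by 0.47. RBL (REBELOTE, AT3G55510), a protein of the same family known from flower development, read 15.6 and 31.8 after ABA and 69.2 and 55.2 in mock shoots. Its change was the larger of the pair, at -1.002, but its ABA arrays stood far apart, and it did not pass (SE 0.28, limma adjusted p = 0.110). AT4G15770, for NIP7, fell by 0.46, to 71.5% of the mock level, and after quantile normalization NOC2 and NIP7 were both at -0.23 without passing.

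The helicase gene AT5G05450 (RH18) read 8.88 and 13.7 after ABA and 27.2 and 15.9 in mock shoots, close to the noise level, and did not pass (-0.45, SE 0.22, limma adjusted p = 0.255). The helicase gene AT4G16630 (RH28) read between -6.14 and -2.20 on the 4 arrays, so it carries no change here.

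**Figure D4:**
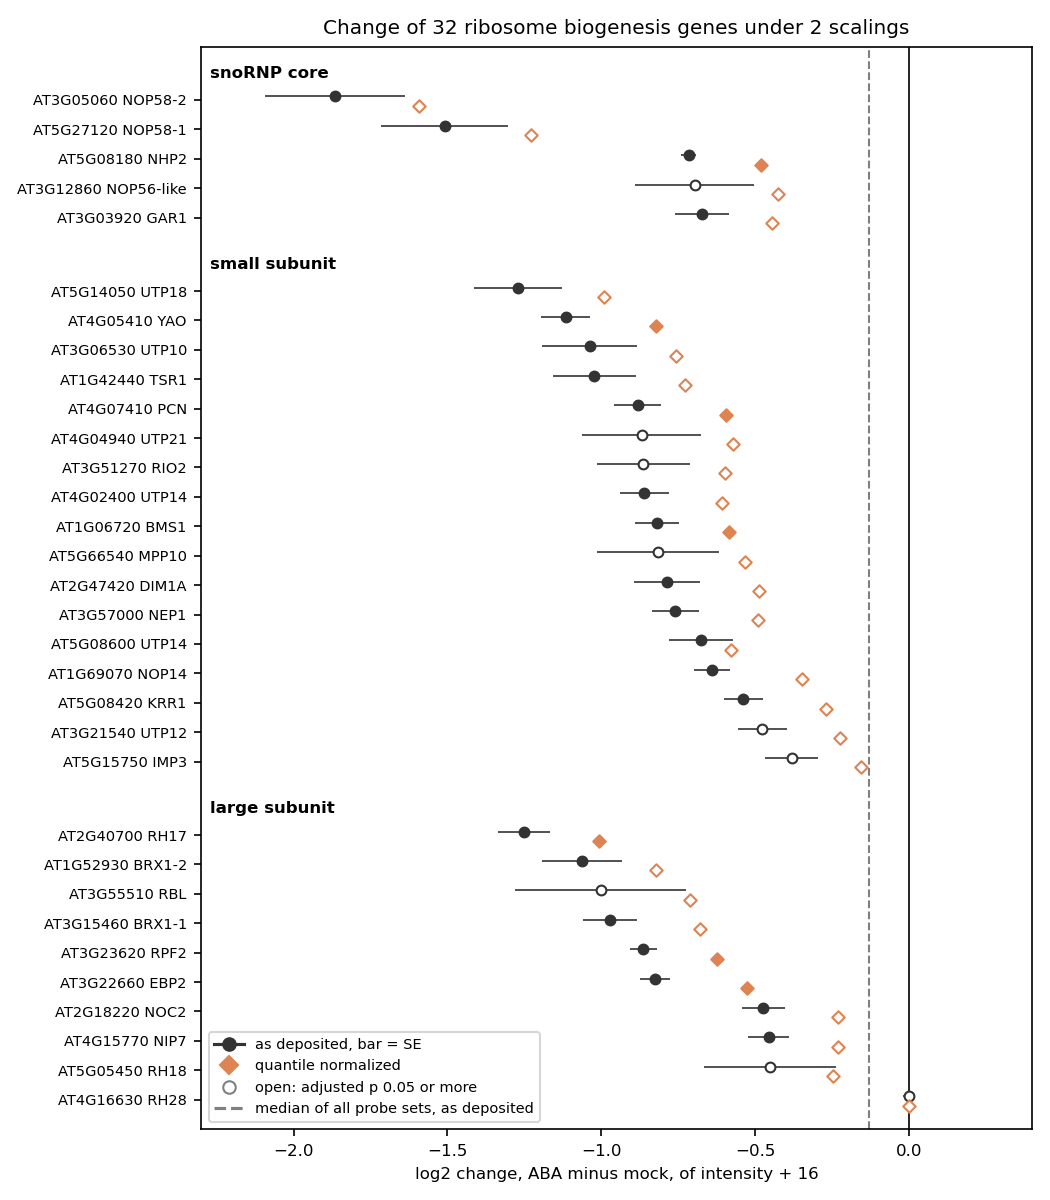
Log2 change (ABA minus mock, of intensity + 16) of each gene, ordered within each step. Black circles with bars are changes as deposited with their SE, orange diamonds are changes after quantile normalization, and open symbols did not pass an adjusted p of 0.05. The dashed line is the median of all probe sets (-0.13), and every gene but AT4G16630 lies left of it as deposited.

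Related genes among the 32 moved in the same direction. The change of AT3G05060 was lower than that of its fellow NOP58 gene AT5G27120 by a difference of -0.36 (SE 0.18), and that of AT1G52930 differed from AT3G15460 by -0.090 (SE 0.051). AT4G02400 and AT5G08600 both encode UTP14, a cofactor that activates a helicase of the processome. AT4G02400 read 13.2 and 16.8 after ABA and 38.9 and 41.3 in mock shoots, and AT5G08600 read 3.03 and 0.510 after ABA and 11.1 and 13.6 in mock shoots. Both were called (-0.86, SE 0.079, and -0.68, SE 0.10), with a difference of -0.18 (SE 0.19). After quantile normalization neither passed (limma adjusted p = 0.0510 and 0.0827). The ABA readings of AT5G08600 lie under the noise level, so the size of its change depends on the constant added. In the exact permutation test, two-sided over 2 against 2 arrays, the 3 differences gave p = 0.333, 0.333 and 0.667, and 0.333 is the smallest value this design allows.

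Other genes of the pathway, from a separate list of 40 loci with 14 named here, showed the same direction. After ABA 13 of these 14 fell and 0 rose (19.6% and 3.97% of all probe sets), and their median was -0.92 over a range of -1.44 to -0.33. In the brightest and second brightest classes, 36.3% and 36.2% of all probe sets fell. After quantile normalization 6 of 14 fell (5.22% of all), with a median of -0.68. The list was chosen with results of these data known and is not independent evidence. AT5G14520, for the Pescadillo protein of large-subunit processing, read 74.5 and 96.7 after ABA and 264 and 252 in mock shoots (-1.44, SE 0.14, limma adjusted p = 0.0263). AT4G26600, for an rRNA methyltransferase of the NOP2 family, read 1.995 and 1.11 after ABA and 23.0 and 20.9 in mock shoots (-1.11), with its ABA readings under the noise level. AT5G60990, a DEAD-box helicase gene (RH10), fell by 1.03, to 38.4% of the mock level. A gene for a subunit of RNA polymerase I, which transcribes the rRNA precursor, AT3G13940, fell by 0.98, with readings of 36.7 and 39.1 after ABA and 93.6 and 87.8 in mock shoots. AT5G18180, a second GAR1 gene, did not pass (-0.33, limma adjusted p = 0.0570) and read 5.53 or less on each array. AT3G13940 and IMP4 were named after their values were seen.

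Genes of dividing cells were followed because ribosome production accompanies growth. Of 24 such markers 3 were named, with summed intensities of 97.1 and 99.5 after ABA and 129 and 134 in mock shoots. PRL, an MCM helicase gene of DNA replication, had a change of -0.50 and the Aurora kinase gene AUR1 one of -0.49, and both were called. AUR2, a second Aurora kinase gene, had a change of 0.10 that did not pass. After quantile normalization the changes were -0.19, -0.21 and 0.40, and AUR2 alone passed (limma adjusted p = 0.0454), while under spike scaling AUR2 was at -0.23. The part of dividing cells in the results above was not tested. None of 6 shoot meristem markers was named, so the share of meristem in these shoots was not tested.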

How the data were processed

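The authors deposited 1 intensity per probe set and array on a linear scale, from -50.9 to 2223, so some background had been subtracted. Per the labels, biotin-labelled amplified RNA was hybridised. Software, scaling and genome build: not given in the sources used here. Coordinates are therefore left out. Of 19658 probe sets, 287 controls were left out. Loci came from the array's annotation, updated through gene identifiers to TAIR10.1, for 11592 of 19371 tested sets. Where a gene had several probe sets, the brightest by mean over the 4 arrays was used. Negative values became 0, and log2(intensity + 16) was used, which understates the change of dim genes. The comparison of ABA with mock used limma 3.58.1 (R 4.3.3, lmFit and eBayes, two-sided, Benjamini-Hochberg over all tested sets, threshold 0.05). The fit was also run on simulated arrays with a common spread and no array-wide shift. That simulation does not give the rate of false calls here. Arrays give no read depth, and 2 per group limits the precision. The members and lists were chosen with earlier results of these data known. Readings on each array are given for the 6 largest called changes per step, for members that did not pass and for related pairs. Alternatives changed the scaling, constant, floor, filter, variance model, replicate block and arrays.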

Additional observations from a re-analysis of the deposited data

How the results depend on the processing

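The direction of the members' median was below 0 under each alternative tried. It moved beyond the spread between replicates to -0.58 after quantile normalization, -0.62 after median centring, -1.17 under spike scaling, -1.19 with 1 added in place of 16, and -0.47 with 64 added, and it ran from -0.90 to -0.72 when 1 array was left out. Quantile normalization left 7 of 32 members lower, with 1 in the snoRNP core, 3 in the small subunit, 3 in the large subunit, and 6 of the 14 other pathway genes. A floor of 32 left 1 snoRNP core gene and 8 pathway genes lower, and limma warned that over 50% of its variances were 0 there, so these calls are unreliable. With the labels' replicate number as a block, 0 members, 0 in each step and 0 pathway genes passed in limma, but neither did any other of the 19371 probe sets, the ABA-induced genes included (smallest adjusted p = 0.0733). The block leaves too little freedom for a call and left the median at -0.82. In that limma fit 28 of 32 members and 13 of 14 pathway genes were lower at an unadjusted p under 0.05. Of all 19371 probe sets, 7115 passed that threshold in either direction. Deviations of same-numbered arrays correlated at 0.039 across probe sets, and the labels do not say that a number marks a shared batch. Whether same-numbered arrays shared a batch was not tested. The calls lost when any 1 array was left out say nothing particular about the lists, as such fits hold a lone array in an arm. The other alternatives for the members' count gave 17 to 30 lower, and 0 members were higher in any. The 17 came from the floor of 32, where 2203 of all 19371 probe sets were called lower. The 30 came from the filter at the 40th percentile, which kept 30 members, and 5809 of 11622 probe sets were called lower there. Spike scaling called 29 members and 8085 of 19371 probe sets lower. Detection calls were not used here, so the noise level stands in for them.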

Other observations

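The array also carries control sets for mature ribosomal RNA, which no comparison above uses. The 25S rRNA set read 148 and 78.7 after ABA and 112 and 129.5 in mock shoots. The groups overlapped and the ABA replicates differed more than the groups did. The 5S rRNA set read 10.9 and 1.49 after ABA and 11.7 and 12.4 in mock shoots, near the noise level. Neither set was tested.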
